A study of Rattus norvegicus with 13 samples.

Results

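The genes described here mark macrophages and other myeloid cells. They were taken from a list of 37 gene symbols, and the array measured 33 of them among 14217 genes. Where several probe sets measured a gene, the one with the highest average level on the 13 arrays stands for it. The list was drawn up by function, with earlier results of these data known. Msr1, Marco, Vsig4 and Spi1 were not analysed here.

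Macrophages are phagocytes that arise from circulating monocytes or live in a tissue from early development, and the resident macrophages of the liver are called Kupffer cells. They take up dying cells, antibody-coated particles and complement-coated debris through Fc receptors, scavenger receptors and lectins, and break them down with lysosomal proteases, lysozyme and an oxidase. They depend on the receptor Csf1r and its ligands Csf1 and Il34. Cholangiocarcinoma, a cancer of the bile ducts, grows in a fibrous stroma in which macrophages are common.

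Expression was measured on single-colour Affymetrix arrays in rat intrahepatic cholangiocarcinoma and in cells cultured from this model. The 4 tumours came from young adult male Fischer 344 rats, grew after BDEsp cells were placed in the bile duct, and were snap-frozen. BDEsp cells are BDE1 rat cholangiocytes that became transformed spontaneously. Both lines also have the Fischer 344 background, and each is a single clone. The cholangiocarcinoma (epithelial) line is clone H10, and the fibroblastic line, which carries alpha smooth muscle actin, is clone E4. Both were grown in a gel of rat tail type I collagen. An array labelled as epithelial cells in co-culture (n = 1) and an array labelled as fibroblastic cells in co-culture (n = 1) are set below against 3 arrays of the epithelial line alone and 4 arrays of the fibroblastic line alone. The labels do not say whether arrays of a line came from separate cultures, so p-values cover the spread between these arrays, and the number of arrays limits the precision.

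Values are RMA levels on the log2 scale, so a difference of 1 is a 2-fold difference. They ran from 2.94 to 14.69 with array medians of 6.15 to 6.25. Both co-culture arrays carried markers of both lines. The keratin gene Krt19 stood at 13.49 in the array labelled epithelial co-culture and at 13.21 in the array labelled fibroblastic co-culture, while the epithelial line had 13.90 to 14.24 and the fibroblastic line 4.01 to 4.29. The collagen gene Col1a1 stood at 12.61 and 13.04 in those arrays, while the epithelial line had 5.57 to 5.85 and the fibroblastic line 13.43 to 13.96. The tumours also held other cells: 13 of 15 T, B and NK cell markers, 8 of 11 endothelial markers and 15 of 15 hepatocyte markers were higher in the tumours than in both lines. Over all genes the share higher than both lines was 12%. The hepatocyte list averaged 12.79, 5.81, 11.16 and 13 in tumours 1 to 4. In whole tumours, fewer cells of a type and less RNA per cell cannot be told apart.

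The tumours held high levels of almost all of these genes, and the cultures held low ones. Against the epithelial line 32 of 33 genes were higher in the tumours, and against the fibroblastic line 32 of 33, at a limma adjusted p under 0.05. Over all genes the share higher was 18.9% against the epithelial line and 27.3% against the fibroblastic line. A total of 31 genes were higher than both lines, against 12% of all genes. Called lower in the tumours were 0 of the 33 genes against either line, while 33.2% and 33.5% of all genes were called lower than the epithelial line and the fibroblastic line. None of the 33 differences was negative, a count not made over all genes. The median difference of the 33 genes was 4.50 from the epithelial line and 4.72 from the fibroblastic line, beside medians of -0.17 and -0.07 over all genes. The 2 comparisons share the 4 tumours.

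**Figure D1:**
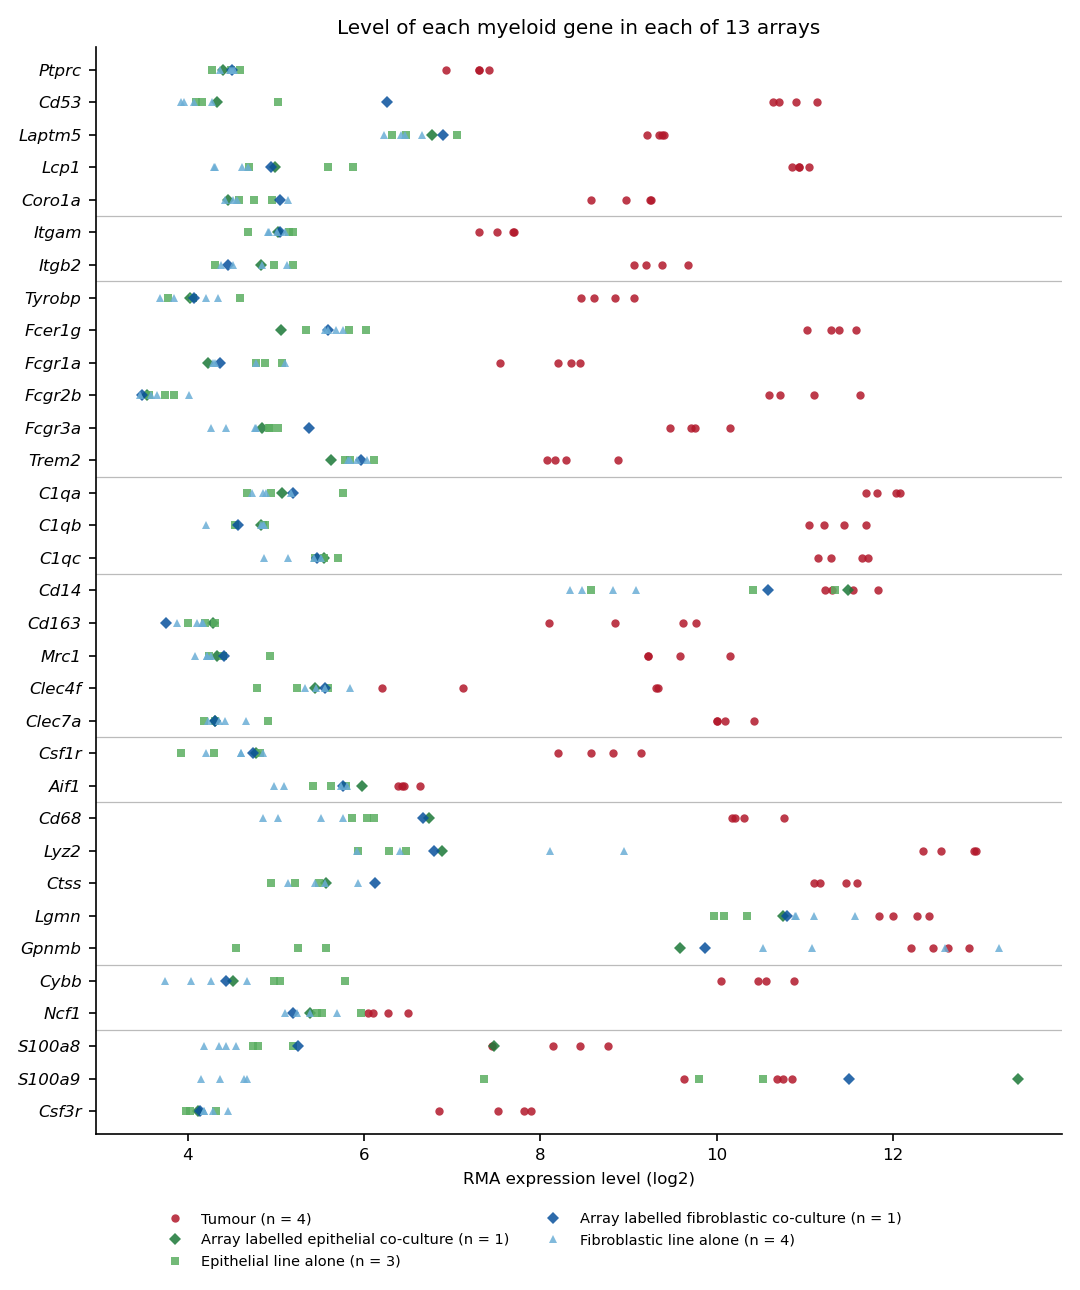
RMA level (log2) of each of the 33 measured myeloid genes in each of the 13 arrays, with 1 mark per array and grey lines between role groups. The tumour marks stand to the right of every culture mark for 29 genes, and the exceptions are Cd14, Gpnmb, S100a8 and S100a9.

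Separation by array was as clear as separation by mean. Every tumour was above every array of both lines grown alone for 30 genes, which held for 11.6% of all genes. Every tumour was above every culture array, co-culture included, for 29 genes, against 10.3% of all genes. The tumour mean was at least 8-fold above the mean of the higher line for 22 genes, against 1.91% of all genes. When all 14217 genes were ordered by that difference, 4 of the 33 were among the first 20, 14 among the first 100 and 27 among the first 500. Fcgr2b stood highest of them, in place 9, and Ncf1 lowest, in place 1480.

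**Figure D2:**
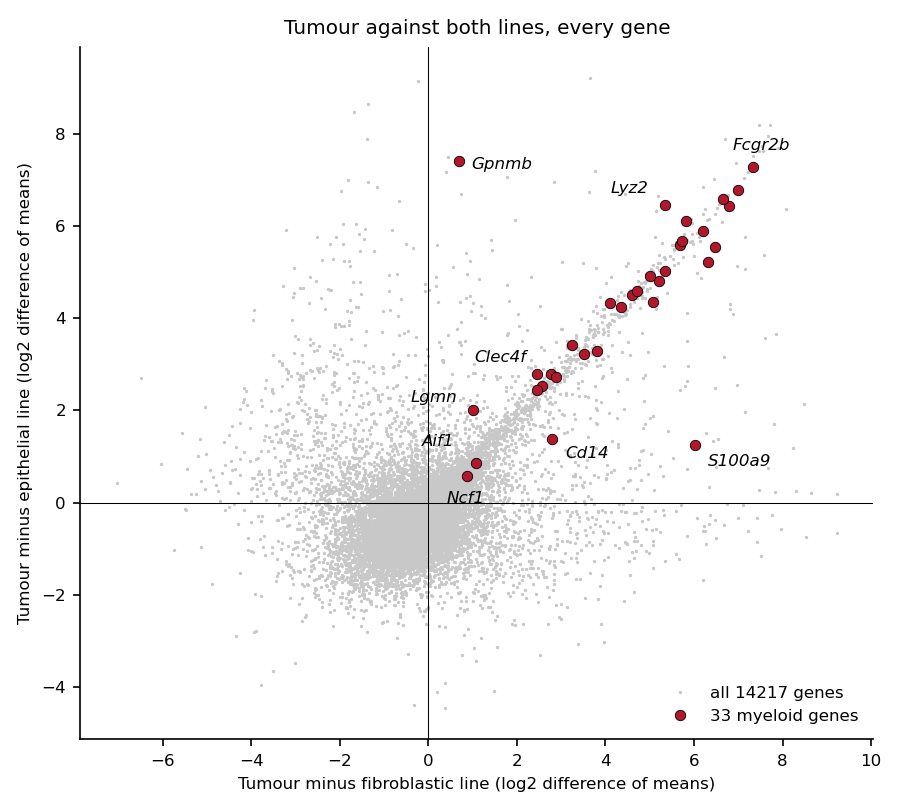
Tumour minus fibroblastic line (x axis) against tumour minus epithelial line (y axis), each a log2 difference of means, for all 14217 genes in grey and the 33 myeloid genes in red. Most red points lie along the diagonal at differences of 2 to 7; Gpnmb (0.69 on x) and S100a9 (1.25 on y) lie off it, each close to 0 against a single line.

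Since these genes were high together, the 250 bases before an annotated start of each were read from the RefSeq promoter table (build GRCr8). It held 24 of the 33. For C1qb, C1qa, Cybb, Clec4f, Gpnmb and S100a9 that start was the edge of the gene. For some other genes it lay inside the gene, so the window overlapped the gene. The Cd14 window (28611159 to 28611408) lay wholly inside its gene (28609558 to 28611409). The motif searched was GAGGAA or its reverse complement TTCCTC, the purine-rich core bound by PU.1, the product of Spi1 and a transcription factor of myeloid cells. It was found in 17 of the 24 windows (70.8%), against 23.2% of all 27457 windows of that length and 23.1% of the 11702 windows of genes on the array. The 17 include windows that overlapped their gene, such as those of Cd14 and Csf1r with 2 copies each. The share without such windows was not counted. A match is a stretch of letters and was not tested as a binding site. The share among other genes high in the tumours was not counted, and a part of the motif in the tumour excess was not tested. Below are the windows of genes on which later results turn, 5′ to 3′ in the direction of the gene, with the motif in capitals: a pair of C1q chains of which only one holds the motif, the oxidase subunit Cybb with the motif next to the start, the lectin Clec4f, which varied most between tumours, and Gpnmb and S100a9, which were also high in a line.
C1qb, chr5:154407828-154408077, - strand: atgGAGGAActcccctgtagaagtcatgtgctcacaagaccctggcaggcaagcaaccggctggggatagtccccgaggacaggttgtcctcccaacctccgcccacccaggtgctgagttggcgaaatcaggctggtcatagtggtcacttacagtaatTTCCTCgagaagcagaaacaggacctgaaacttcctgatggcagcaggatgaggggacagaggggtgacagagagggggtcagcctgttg
C1qa, chr5:154419934-154420183, - strand: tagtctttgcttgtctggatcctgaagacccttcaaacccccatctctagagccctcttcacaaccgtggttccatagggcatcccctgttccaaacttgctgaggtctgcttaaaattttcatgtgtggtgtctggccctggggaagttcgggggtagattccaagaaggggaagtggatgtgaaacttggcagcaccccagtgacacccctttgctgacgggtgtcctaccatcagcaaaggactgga
Cybb, chrX:16065066-16065315, - strand: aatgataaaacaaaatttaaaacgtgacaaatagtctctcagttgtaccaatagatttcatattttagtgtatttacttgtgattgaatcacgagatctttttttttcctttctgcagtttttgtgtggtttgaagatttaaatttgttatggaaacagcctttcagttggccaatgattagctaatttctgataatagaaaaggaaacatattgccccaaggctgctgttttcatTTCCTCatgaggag
Clec4f, chr4:117696408-117696657, - strand: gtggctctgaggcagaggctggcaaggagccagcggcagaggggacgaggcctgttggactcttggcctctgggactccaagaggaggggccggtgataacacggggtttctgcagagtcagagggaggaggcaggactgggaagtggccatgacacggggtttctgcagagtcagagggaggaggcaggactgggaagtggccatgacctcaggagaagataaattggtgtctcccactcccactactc
Gpnmb, chr4:79340878-79341127, + strand: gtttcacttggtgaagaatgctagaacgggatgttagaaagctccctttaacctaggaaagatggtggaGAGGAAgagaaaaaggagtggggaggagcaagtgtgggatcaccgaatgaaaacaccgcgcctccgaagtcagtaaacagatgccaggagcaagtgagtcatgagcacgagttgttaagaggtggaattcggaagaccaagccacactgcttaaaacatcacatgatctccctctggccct
S100a9, chr2:178490623-178490872, - strand: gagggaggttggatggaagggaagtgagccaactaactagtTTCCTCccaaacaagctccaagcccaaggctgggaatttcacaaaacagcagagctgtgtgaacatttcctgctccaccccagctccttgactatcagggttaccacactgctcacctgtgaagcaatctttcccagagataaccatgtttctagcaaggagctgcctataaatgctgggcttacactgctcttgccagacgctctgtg
Counted back from the start, the motif began at base -247 and base -90 in C1qb, -14 in Cybb, -181 in Gpnmb and -209 in S100a9. The windows of C1qa and Clec4f did not hold these letters.

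Genes of the leukocyte surface and cytoskeleton, which lymphocytes also express, were higher than both lines in 5 of 5. Ptprc, the leukocyte common antigen and a membrane phosphatase, had 7.30, 7.42, 6.93 and 7.31 in the tumours, against 4.28, 4.59 and 4.49 in the epithelial line and 4.50, 4.48, 4.53 and 4.37 in the fibroblastic line. The groups did not overlap, and the 2 co-culture arrays (4.40 and 4.50) lay among the lines. The tumours exceeded the epithelial line by 2.78 (limma adjusted p = 1.98e-07) and the fibroblastic line by 2.77 (limma adjusted p = 5.64e-08). A second Ptprc probe set gave larger differences, 4.54 and 4.77.

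Cd53, a tetraspanin of leukocytes, had 10.71, 11.14, 10.64 and 10.90 in the tumours, against 5.02, 4.09 and 4.16 in the epithelial line and 4.07, 4.28, 3.93 and 3.96 in the fibroblastic line. Its tumour excess was the largest of the group, at 6.43 over the epithelial line (limma adjusted p = 1.11e-08) and 6.79 over the fibroblastic line (limma adjusted p = 2.86e-09). Lcp1, an actin-bundling protein of blood cells, averaged 10.94 ± 0.08 in tumours (SD, n = 4), 5.39 ± 0.62 in the epithelial line (n = 3) and 4.48 ± 0.20 in the fibroblastic line (n = 4). Coro1a, an actin regulator of leukocytes, averaged 9.01 ± 0.32 in tumours, 4.76 ± 0.19 in the epithelial line and 4.66 ± 0.33 in the fibroblastic line. Laptm5, a lysosomal membrane protein of blood cells, had the smallest excess of the group over the higher line: its tumours read 9.38, 9.35, 9.21 and 9.40, against 6.32, 6.48 and 7.05 in the epithelial line and 6.47, 6.23, 6.42 and 6.66 in the fibroblastic line. Tumours and lines did not overlap for it, and a second Laptm5 probe set gave 4.85 and 5.00 in place of 2.72 and 2.89.

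The β2 integrin genes were higher than both lines in 2 of 2. Itgb2, the shared β chain of the leukocyte integrins, averaged 9.33 ± 0.26 in tumours, 4.83 ± 0.47 in the epithelial line and 4.71 ± 0.34 in the fibroblastic line. Itgam, the α chain of the complement receptor of macrophages and neutrophils, had 7.51, 7.69, 7.70 and 7.30 in the tumours, against 4.69, 5.15 and 5.19 in the epithelial line and 5.01, 4.91, 5.10 and 4.92 in the fibroblastic line. No tumour came within 2.11 of any culture array. Its tumour excess was 2.54 over the epithelial line (limma adjusted p = 8.94e-07) and 2.56 over the fibroblastic line (limma adjusted p = 2.00e-07).

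Fc receptors and the adaptors that carry their signal were higher than both lines in 6 of 6. Fcgr2b, the inhibitory receptor for antibody complexes, which liver sinusoidal endothelium and B cells express too, had 11.10, 10.59, 10.72 and 11.63 in the tumours. It had 3.56, 3.74 and 3.84 in the epithelial line and 3.58, 3.46, 4.01 and 3.65 in the fibroblastic line. All 9 culture arrays lay between 3.46 and 4.01, and the lowest tumour was 6.58 above the highest of them. The tumours exceeded the epithelial line by 7.29 (limma adjusted p = 7.39e-09) and the fibroblastic line by 7.34 (limma adjusted p = 2.59e-09).

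The activating receptors were also high. Fcgr3a averaged 9.77 ± 0.28 in tumours, 4.96 ± 0.06 in the epithelial line and 4.56 ± 0.25 in the fibroblastic line. Fcgr1a, the high-affinity receptor, averaged 8.13 ± 0.41 in tumours, 4.91 ± 0.15 in the epithelial line and 4.62 ± 0.39 in the fibroblastic line. Their adaptor chains were well above the lines too. Fcer1g, the common γ chain, averaged 11.33 ± 0.23 in tumours, 5.73 ± 0.35 in the epithelial line and 5.65 ± 0.09 in the fibroblastic line. Tyrobp, the adaptor of Trem2, averaged 8.74 ± 0.26 in tumours, 4.14 ± 0.41 in the epithelial line and 4.02 ± 0.30 in the fibroblastic line. Trem2, a lipid-sensing receptor of macrophages, had the smallest excess of the group, with 8.08, 8.88, 8.29 and 8.17 in the tumours, against 5.78, 6.11 and 5.84 in the epithelial line and 5.92, 6.03, 5.82 and 5.84 in the fibroblastic line. Tumours and lines did not overlap, and the tumours exceeded the epithelial line by 2.44 (limma adjusted p = 4.57e-06) and the fibroblastic line by 2.45 (limma adjusted p = 9.79e-07).

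The 3 chains of C1q, which starts the classical complement pathway and is made largely by macrophages, were among the most raised of all 14217 genes, in places 14, 17 and 33. C1qa had 11.70, 12.03, 11.82 and 12.08 in the tumours, against 4.95, 4.67 and 5.76 in the epithelial line and 4.85, 4.89, 5.17 and 4.73 in the fibroblastic line. C1qb had 11.05, 11.45, 11.22 and 11.70 in the tumours, against 4.54, 4.86 and 4.88 in the epithelial line and 4.83, 4.21, 4.85 and 4.87 in the fibroblastic line. C1qc had 11.15, 11.72, 11.30 and 11.65 in the tumours, against 5.71, 5.55 and 5.44 in the epithelial line and 5.14, 4.87, 5.51 and 5.43 in the fibroblastic line. For each chain tumours 2 and 4 were above tumours 1 and 3, and no tumour came within 5.44 of a culture array. The excess over the epithelial line was 6.78 for C1qa (limma adjusted p = 1.04e-08), 6.59 for C1qb (6.01e-09) and 5.89 for C1qc (7.39e-09). Over the fibroblastic line it was 7.0, 6.66 and 6.21 in the same order (limma adjusted p = 2.91e-09, 1.98e-09 and 1.98e-09). All 3 genes lie on chromosome 5 in GRCr8.

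Pattern and scavenger receptors were higher than both lines in 5 of 5 measured. Clec7a, the β-glucan receptor, averaged 10.13 ± 0.20 in tumours, 4.47 ± 0.39 in the epithelial line and 4.42 ± 0.18 in the fibroblastic line. Its tumours were 10.09, 10.42, 10.01 and 10.01, and no culture array passed 4.91. Mrc1, the mannose receptor, which liver sinusoidal endothelium also carries, averaged 9.54 ± 0.44 in tumours, 4.52 ± 0.36 in the epithelial line and 4.20 ± 0.08 in the fibroblastic line. The excess over the epithelial line was 5.67 for Clec7a (limma adjusted p = 9.11e-09) and 5.02 for Mrc1 (limma adjusted p = 1.23e-07).

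Cd14, the co-receptor for bacterial lipopolysaccharide, was an exception, since culture arrays reached the tumours. It had 11.23, 11.83, 11.55 and 11.31 in the tumours, and 11.49 in the array labelled epithelial co-culture and 10.58 in the array labelled fibroblastic co-culture. The epithelial line alone had 8.57, 10.41 and 11.34, and the fibroblastic line alone had 8.34, 9.09, 8.47 and 8.82. The highest epithelial array lay among the tumours, while no fibroblastic array did. The excess over the fibroblastic line was 2.80 (limma adjusted p = 0.000482). The excess over the epithelial line was 1.37 (limma adjusted p = 0.0421), and that call ended without any 1 of 9 arrays, such as epithelial array 1 (0.60, adjusted p = 0.128). Against the epithelial co-culture array the difference was -0.02 (limma adjusted p = 0.993).

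Cd163 and Clec4f varied between the tumours. Cd163, the scavenger receptor for haemoglobin bound to haptoglobin, had 8.85, 8.10, 9.77 and 9.62 in the tumours, against 4.0, 4.31 and 4.20 in the epithelial line and 4.17, 4.16, 4.11 and 3.88 in the fibroblastic line. Every tumour was far above every culture, and the excess was 4.91 over the epithelial line (limma adjusted p = 2.11e-06) and 5.00 over the fibroblastic line (limma adjusted p = 3.98e-07). Clec4f, a galactose-binding lectin of rat Kupffer cells, had 9.34, 6.20, 7.12 and 9.31 in the tumours, against 4.79, 5.24 and 5.59 in the epithelial line and 5.33, 5.46, 5.84 and 5.56 in the fibroblastic line. Tumours 1 and 4 were far above tumours 2 and 3, and tumour 2 was 0.36 above the highest culture array. The excess was 2.79 over the epithelial line (limma adjusted p = 0.00589) and 2.45 over the fibroblastic line (limma adjusted p = 0.00602). Tumour 2, the lowest for Clec4f, was 0.99 above the epithelial mean and 0.65 above the fibroblastic mean.

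**Figure D3:**
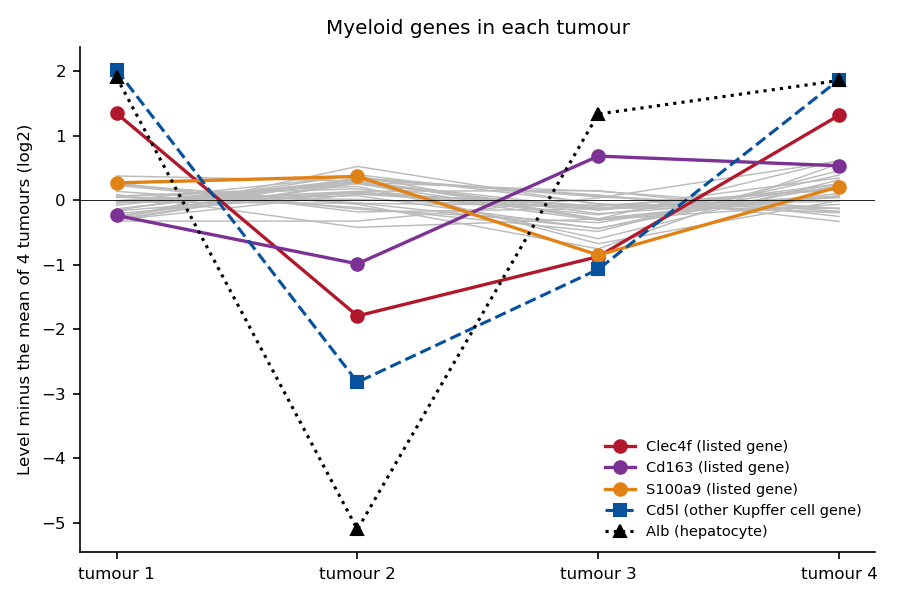
Level minus the mean of the 4 tumours (log2) in each tumour, with 1 line per myeloid gene (grey, or coloured for Clec4f, Cd163 and S100a9) and dashed or dotted lines for Cd5l and Alb; lines join the points of a gene and imply no order of tumours. Clec4f and Cd5l are high in tumours 1 and 4 and low in tumours 2 and 3, Alb is low in tumour 2, and most grey lines stay close to 0.

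The order of Clec4f, with tumours 1 and 4 both above tumours 2 and 3, was shared by 6 of 9 genes measured from a list of Kupffer cell and resident macrophage genes (Cd36, Cd5l, Cfp, Fcna, Slc40a1 and Stab1). It was also shared by 15 of 15 hepatocyte markers and 7 of 11 endothelial markers, and by 20.6% of all genes. Cd5l, a secreted protein of tissue macrophages, had 9.49, 4.65, 6.40 and 9.34 in tumours 1 to 4, while Alb, the albumin gene of hepatocytes, had 14.51, 7.50, 13.94 and 14.46. The Kupffer list averaged 8.47, 7.37, 7.62 and 8.64 in tumours 1 to 4. The hepatocyte list, given above, was also lowest in tumour 2, and its part in the Clec4f values was not tested. The other 3 genes of the Kupffer list, Adgre1, Folr2 and Hmox1, had another order. Adgre1, an adhesion receptor of macrophages, had 7.41, 7.74, 6.90 and 8.12, and Folr2, a folate receptor of resident macrophages, had 9.25, 9.52, 9.26 and 9.46. Adgre1 was above the epithelial line by 3.77 (limma adjusted p = 2.06e-06) and Folr2 by 4.16 (limma adjusted p = 1.91e-06). Of 9 genes measured from that list, 6 were higher in the tumours than in both lines, beside 12% of all genes.

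For most of the 33 genes the tumours differed by less than 1 unit, but by more than for genes in general. The range over the 4 tumours had a median of 0.60 and was below 1 for 27 genes. Over all genes the median range was 0.39, and it was below 1 for 12822 of 14217. It was above 1 for 6 genes (Fcgr2b, Cd163, Clec4f, S100a8, S100a9 and Csf3r), against 9.81% of all genes. Tumour 2 was the highest tumour for 15 genes and tumour 4 for 12, and tumour 3 was the lowest for 17, counts not made over all genes. Median deviations of the 33 genes from their tumour means were small. They were 0.14, 0.1 and -0.16 in tumours 2, 4 and 3, beside 0.04, 0 and 0.02 over all genes. The order of Clec4f held for 9 of the 33 genes, beside the 20.6% of all genes given above.

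Csf1r, the receptor on which macrophages depend, had 8.82, 8.57, 8.20 and 9.14 in the tumours, against 4.82, 3.92 and 4.30 in the epithelial line and 4.86, 4.21, 4.60 and 4.61 in the fibroblastic line. Tumours and cultures did not overlap, and the excess was 4.34 over the epithelial line (limma adjusted p = 8.62e-07) and 4.11 over the fibroblastic line (limma adjusted p = 2.88e-07). Its ligands were tested as well. Csf1 had 9.56, 9.25, 9.48 and 9.24 in the tumours, against 7.53, 7.85 and 8.14 in the epithelial line and 7.62, 7.78, 7.80 and 7.99 in the fibroblastic line. The tumours were above every line array. Its excess was 1.54 over the epithelial line (limma adjusted p = 4.42e-05) and 1.59 over the fibroblastic line (limma adjusted p = 8.28e-06). Il34 had 6.28, 5.94, 5.93 and 7.0 in the tumours and no more than 4.75 in either line alone, with an excess of 1.70 (limma adjusted p = 0.000307) and 1.79 (limma adjusted p = 6.36e-05) over the epithelial and the fibroblastic line. Csf1 has 4 probe sets, and the one with the largest variance gave 0.08 over the epithelial line (adjusted p = 0.823) and -1.18 from the fibroblastic line (adjusted p = 0.0014), so its direction depended on the probe set.

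Aif1, a calcium-binding protein of macrophages, gave different answers from its 2 probe sets. The one with the higher mean had 6.45, 6.43, 6.39 and 6.64 in the tumours, against 5.42, 5.63 and 5.80 in the epithelial line and 4.98, 5.09, 5.74 and 5.81 in the fibroblastic line. Its excess was 0.86 over the epithelial line (limma adjusted p = 0.00662) and 1.07 over the fibroblastic line (limma adjusted p = 0.000849), and on a further quantile normalization 0.47 over the epithelial line (adjusted p = 0.0724). The other had 9.53, 9.90, 9.21 and 9.81 in the tumours, against 3.43, 3.60 and 3.78 in the epithelial line and 3.40, 3.46, 3.45 and 3.31 in the fibroblastic line, a difference of 6.01 and 6.21. Both probe sets separated the tumours from the lines. Of the 6 genes with 2 probe sets, Cybb, Laptm5, Ptprc and Trem2 had differences above 2 in both, while Lgmn had only 0.31 and 0.64 in its dimmer probe set.

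**Figure D4:**
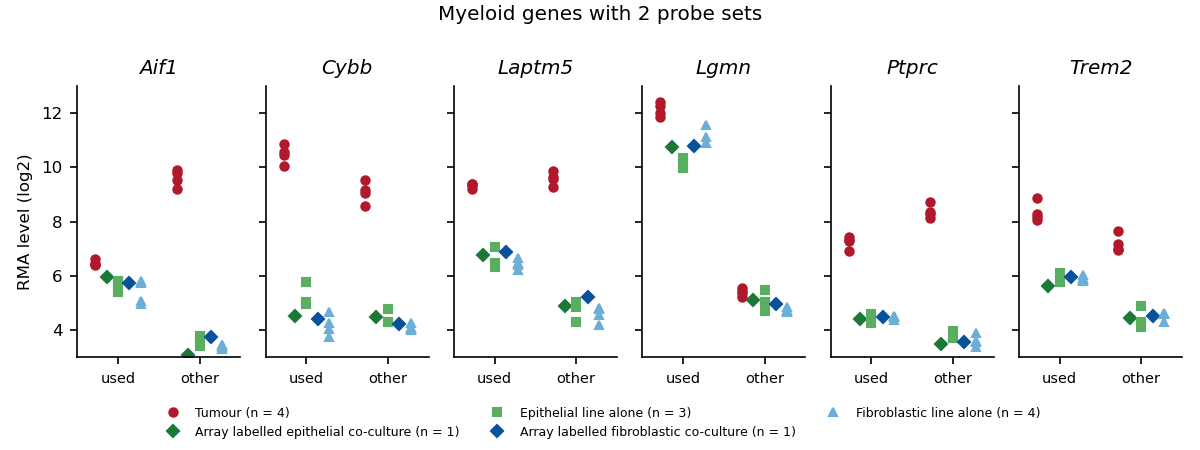
RMA level (log2) on each array for the 6 myeloid genes with 2 probe sets, the one used at left and the other at right of each panel, with 1 mark per array. The tumours separate from the lines in both probe sets except for the other set of Lgmn, where all 13 arrays lie between 4.68 and 5.54.

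Genes of the lysosome and of lysozyme were higher than both lines in 4 of 5. Cd68, a lysosomal glycoprotein of macrophages, had 10.21, 10.76, 10.31 and 10.17 in the tumours, against 6.03, 6.11 and 5.86 in the epithelial line and 4.85, 5.51, 5.03 and 5.76 in the fibroblastic line. The groups did not overlap, with an excess of 4.36 over the epithelial line (limma adjusted p = 2.36e-07) and 5.08 over the fibroblastic line (limma adjusted p = 2.30e-08). Ctss, a cathepsin of antigen-presenting cells, had 11.17, 11.47, 11.11 and 11.59 in the tumours, against 4.95, 5.22 and 5.49 in the epithelial line and 5.56, 5.14, 5.93 and 5.44 in the fibroblastic line. Its excess over the epithelial line was 6.11 (limma adjusted p = 9.48e-09) and over the fibroblastic line 5.82 (limma adjusted p = 4.89e-09).

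Lyz2, lysozyme, had 12.92, 12.55, 12.34 and 12.94 in the tumours, against 6.48, 5.93 and 6.28 in the epithelial line. In the fibroblastic line it had 5.92, 8.11, 6.41 and 8.95, so arrays 2 and 4 stood above arrays 1 and 3. The tumours were clear of all of them, by 6.45 over the epithelial mean (limma adjusted p = 2.02e-05) and 5.34 over the fibroblastic mean (limma adjusted p = 1.77e-05). Gpnmb shared the split within the fibroblastic line. No other of the 33 genes had fibroblastic arrays 2 and 4 more than 1 unit above arrays 1 and 3, a pattern of 2.77% of all genes. The actin control probes are a measure of RNA integrity on these arrays. Their 3′ minus 5′ difference was 2.65 and 2.01 in fibroblastic arrays 2 and 4, and 1.72 and 1.04 in arrays 1 and 3. For the GAPDH control probes it was 0.27 and 0.15 in arrays 2 and 4, and 0.15 and -0.04 in arrays 1 and 3. All tumours (0.61 to 0.75) were below all cultures (0.85 to 2.65) in the actin difference. The part of RNA integrity in the values of Lyz2 and Gpnmb, and in the tumour excess, was not tested.

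Lgmn and Gpnmb were the lysosomal genes whose levels in a line came closest to those of the tumours. Lgmn, the protease legumain, had 11.84, 12.41, 12.27 and 12.00 in the tumours, against 10.34, 9.97 and 10.08 in the epithelial line and 10.89, 11.57, 10.90 and 11.11 in the fibroblastic line. The lowest tumour was 0.27 above the highest culture array, and the excess was 2.0 over the epithelial line (limma adjusted p = 2.98e-05) and 1.01 over the fibroblastic line (limma adjusted p = 0.000809). Gpnmb, a membrane glycoprotein of lysosome-rich macrophages and melanocytes, had 12.46, 12.86, 12.62 and 12.21 in the tumours, against 4.55, 5.25 and 5.57 in the epithelial line and 10.53, 13.20, 11.08 and 12.59 in the fibroblastic line. The tumours lay inside the range of the fibroblastic arrays. They exceeded the epithelial line by 7.41 (limma adjusted p = 4.20e-06). The difference from the fibroblastic line was 0.69 and was not called (limma adjusted p = 0.268), but was 1.14 without fibroblastic array 2 (adjusted p = 0.0492).

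General lysosomal genes, which most cells use, stood differently against each line. Against the epithelial line 6 of 12 were higher in the tumours (median difference 0.52), beside 18.9% of all genes. Against the fibroblastic line 1 was higher and 7 were lower (median difference -0.79), beside 27.3% and 33.5% of all genes. The gene higher than both, the saposin precursor Psap, was at 1.44 over the epithelial line (limma adjusted p = 0.000409) and 1.55 over the fibroblastic line (limma adjusted p = 8.07e-05).

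The phagocyte oxidase makes superoxide in phagosomes. Its membrane subunit Cybb had 10.47, 10.56, 10.05 and 10.88 in the tumours, against 5.05, 5.79 and 4.98 in the epithelial line and 3.74, 4.04, 4.67 and 4.27 in the fibroblastic line. The groups were far apart, with an excess of 5.22 over the epithelial line (limma adjusted p = 2.48e-07) and 6.31 over the fibroblastic line (limma adjusted p = 1.87e-08). The cytosolic subunit Ncf1 had 6.50, 6.05, 6.10 and 6.27 in the tumours, against 5.47, 5.97 and 5.52 in the epithelial line and 5.24, 5.10, 5.39 and 5.69 in the fibroblastic line. Its lowest tumour was only 0.08 above the highest culture array. The excess of 0.58 over the epithelial line (limma adjusted p = 0.022) was lost on a further quantile normalization (0.13, adjusted p = 0.582) and without tumour 1 or epithelial array 1 or 3 (adjusted p = 0.0616, 0.0845 and 0.0708). Among 4 other oxidase genes measured, Ncf4 and Rac2 were higher than both lines, beside 12% of all genes. Ncf4, a cytosolic subunit, had 7.01, 6.77, 6.75 and 6.92 in the tumours and no more than 4.79 in the lines.

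The calgranulins S100a8 and S100a9, calcium-binding proteins abundant in neutrophils and monocytes that epithelia can also make, did not behave alike in the cultures. S100a9 had 10.75, 10.85, 9.63 and 10.69 in the tumours, and 13.42 in the array labelled epithelial co-culture and 11.50 in the array labelled fibroblastic co-culture. The epithelial line alone had 7.36, 9.80 and 10.53, and the fibroblastic line alone had 4.67, 4.64, 4.37 and 4.15. Both co-culture arrays were above every tumour and every array of either line, while tumours and epithelial arrays overlapped. The tumour excess was 6.03 over the fibroblastic line (limma adjusted p = 7.99e-06). Over the epithelial line it was 1.25 and was not called (limma adjusted p = 0.109), but was 1.90 without epithelial array 3 (adjusted p = 0.023). The difference of the tumours from the epithelial co-culture array was -2.94, at a limma adjusted p = 0.0466 that passed 0.05 when any 1 of 8 arrays was left out (up to 0.0814). That p also passed 0.05 on a further quantile normalization, on centring and with trend and robust moderation.

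S100a8 had 8.45, 8.14, 7.45 and 8.77 in the tumours, and 7.47 in the array labelled epithelial co-culture and 5.25 in the array labelled fibroblastic co-culture. The epithelial line alone had 4.80, 4.74 and 5.19, and the fibroblastic line alone had 4.35, 4.55, 4.43 and 4.18. The tumours were above every array grown alone, and the epithelial co-culture array lay beside the lowest tumour. The tumour excess was 3.29 over the epithelial line (limma adjusted p = 6.93e-06) and 3.82 over the fibroblastic line (limma adjusted p = 5.38e-07). Csf3r, the receptor for the neutrophil growth factor Csf3, had 7.90, 7.82, 6.85 and 7.52 in the tumours, against 3.98, 4.03 and 4.32 in the epithelial line and 4.29, 4.18, 4.46 and 4.19 in the fibroblastic line. No culture array came near the tumours, and the excess was 3.41 over the epithelial line (limma adjusted p = 1.92e-06) and 3.24 over the fibroblastic line (limma adjusted p = 6.08e-07). Csf3 itself ran the other way against the epithelial line, with 5.60, 5.70, 5.74 and 6.29 in the tumours, against 9.41, 8.86 and 9.15 there (difference -3.31, limma adjusted p = 1.41e-06). Over the fibroblastic line Csf3 was 0.77 higher (limma adjusted p = 0.00646), and 0.31 on a further quantile normalization (adjusted p = 0.204).

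Among 6 other neutrophil genes measured, 5 were higher in the tumours than in both lines, beside 12% of all genes. The decoy receptor Il1r2 averaged 7.45 ± 0.53 in tumours, 4.15 in the epithelial line and 3.93 in the fibroblastic line. The chemokine receptor Cxcr2 averaged 5.99 ± 0.23 in tumours, 4.52 in the epithelial line and 4.61 in the fibroblastic line. Tumour 3, the lowest for S100a8, S100a9 and Csf3r, was also the lowest for both of these, at 6.66 for Il1r2 and 5.72 for Cxcr2. This did not hold for all 6 genes, since tumour 2 was the lowest for 3 of them. Camp and Lcn2 had tumours 1 and 4 both above tumours 2 and 3.

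**Figure D5:**
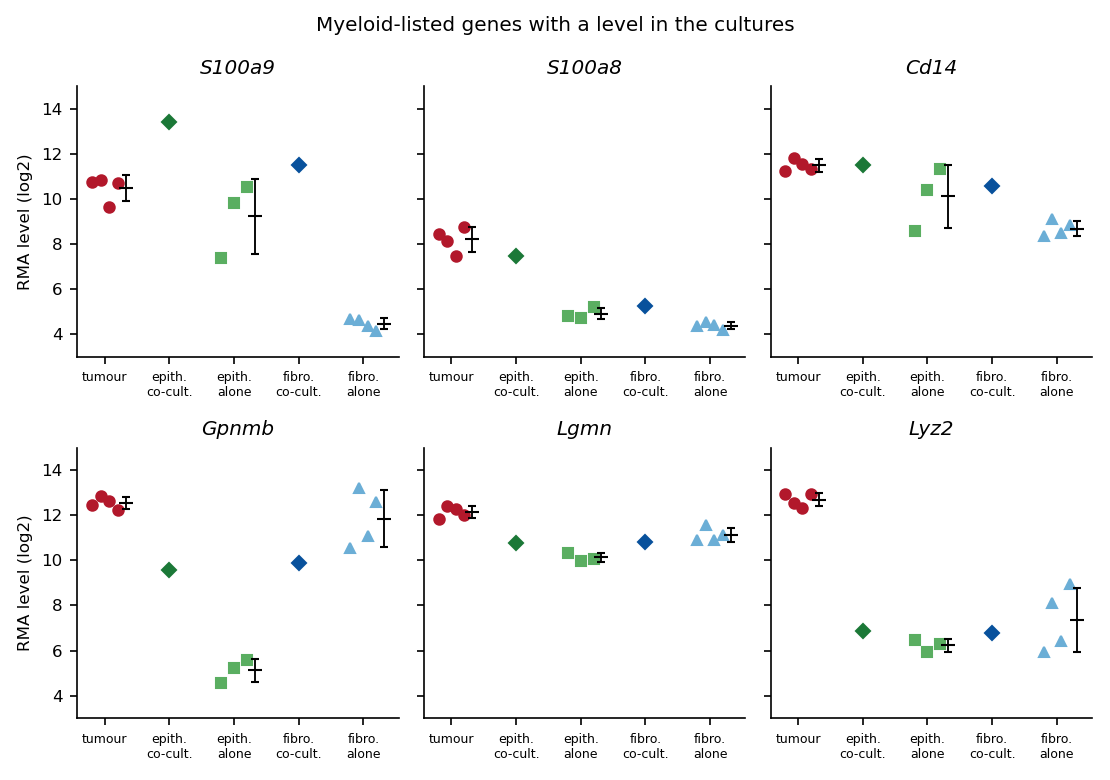
RMA level (log2) by array for 6 myeloid genes with a level in some culture; points are arrays, and bars beside the replicated groups give the mean and SD (n = 4 tumours, 3 epithelial arrays, 4 fibroblastic arrays). S100a9 is highest in the co-culture arrays (13.42 and 11.50), Cd14 in the epithelial line reaches the tumours (11.34), and Gpnmb in the fibroblastic line spans them (10.53 to 13.20).

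Most of the 33 genes were also higher in the tumours than in the co-culture arrays. The tumours were higher than the array labelled epithelial co-culture for 27 of the 33 genes (5.46% of all genes) and lower for 1, S100a9 (11.5% of all genes). They were higher than the array labelled fibroblastic co-culture for 29 genes (6.27% of all genes) and lower for 0 (14.3% of all genes), by limma; at an unadjusted p under 0.05 the count lower was also 0. The median difference was 4.49 from the epithelial co-culture array and 3.96 from the fibroblastic one, beside -0.06 and -0.08 over all genes. Each co-culture group is a single array, whose spread was taken to be that of the replicated groups.

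The share of these genes that changed in co-culture was near that of all genes. Above the epithelial line alone, the array labelled epithelial co-culture was higher for 3 of 33 genes (4.87% of all genes) and lower for 0 (2.37% of all genes; 1 at an unadjusted p under 0.05, all by limma). The 3 were S100a8 by 2.56 (limma adjusted p = 0.000646), S100a9 by 4.19 (limma adjusted p = 0.0443) and Gpnmb by 4.46 (limma adjusted p = 0.0314). Gpnmb read 9.58 there, between the epithelial and the fibroblastic line. S100a8 and S100a9 were more than 1 unit above every array of both lines alone, as were 1.07% of all genes. The call of Gpnmb ended without any 1 of the 3 epithelial arrays (adjusted p up to 0.0778), and that of S100a9 without epithelial array 2 or any 1 fibroblastic array (up to 0.0709). The S100a9 call also ended in a fit of only the groups compared and with trend and robust moderation.

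Above the fibroblastic line alone, the array labelled fibroblastic co-culture was higher for 3 of 33 genes (4.78% of all genes) and lower for 0 (3.63% of all genes; 0 at an unadjusted p under 0.05, all by limma). The 3 were S100a9 by 7.04 (limma adjusted p = 0.00377), Cd53 by 2.19 (limma adjusted p = 0.00818) and Cd68 by 1.38 (limma adjusted p = 0.0474). Cd53 read 6.26 there, more than 1 unit above every array of both lines alone, while the other leukocyte genes of its group read 4.50 (Ptprc), 6.90 (Laptm5), 4.95 (Lcp1) and 5.05 (Coro1a). This array also held epithelial markers, given above, and the epithelial line expressed S100a9. The epithelial marker list averaged 11.49 there, and 11.84 to 12.45 in the epithelial line alone. S100a9 read 11.50 there, and 7.36 to 10.53 in the epithelial line alone. The part of epithelial cells in the S100a9 value was not tested. The call of Cd68 ended when any 1 of 6 arrays was left out (adjusted p up to 0.0787). It also ended on a further quantile normalization, on centring, with array weights and in a fit of only the groups compared. The change in co-culture differed between the arrays of the 2 labels for 3 of the 33 genes by limma, higher in the epithelial one for Gpnmb and S100a8 (4.66% of all genes) and lower for Cd53 (3.76% of all genes).

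Between the lines grown alone 7 of the 33 genes differed, 5 higher in the epithelial line (20.9% of all genes) and 2 lower (16.6% of all genes). S100a9 was higher in the epithelial line by 4.78 (limma adjusted p = 0.000844), Cybb by 1.09 (0.016), Lcp1 by 0.92 (0.0343), Cd68 by 0.72 (0.0441) and S100a8 by 0.53 (0.0374). The calls of Cybb, Lcp1, Cd68 and S100a8 ended when single arrays were left out, with adjusted p up to 0.0522, 0.114, 0.124 and 0.117 in that order, while those of S100a9 and Gpnmb did not. Gpnmb was lower in the epithelial line, at a difference of -6.73 (limma adjusted p = 9.72e-05), and so was Lgmn at -0.99 (limma adjusted p = 0.00613), or -0.33 with the mean of its probe sets (adjusted p = 0.138).

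Genes of myeloid signalling listed beside the 33 were higher in the tumours in differing shares. Over all genes the share higher than both lines was 12%. Of 20 genes of blood cell signalling, 18 were higher in the tumours than in both lines, among them Plek, a substrate of protein kinase C (8.06 ± 0.28 in tumours, 4.67 in the epithelial line, 4.54 in the fibroblastic line), and the Src-family kinase Fgr (7.82 ± 0.30 in tumours, 4.31 in the epithelial line, 4.69 in the fibroblastic line). Of 11 chemokine and cytokine receptors 8 were higher than both, with the complement receptor C5ar1 at 8.69 ± 0.15 in tumours, 4.82 in the epithelial line and 4.59 in the fibroblastic line. Of 9 Toll-like receptor genes and partners 5 were, with Tlr8 at 6.79 ± 0.21 in tumours and 4.21 in each line. All 8 antigen-presentation genes of MHC class II were, with Cd74 at 12.94, 12.88, 12.95 and 13.21 in the tumours and no more than 5.62 in either line alone. Of 7 dendritic cell genes 5 were, with Clec9a at 5.83 ± 0.15 in tumours, 3.89 in the epithelial line and 3.87 in the fibroblastic line.

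Of 12 transcription factors measured, 8 were above the epithelial line in the tumours and 1 below it (median difference 1.40), beside 18.9% and 33.2% of all genes. Against the fibroblastic line 3 were above and 4 below (median difference -0.17), beside 27.3% and 33.5% of all genes. A total of 3 were higher than both lines, beside 12% of all genes, and Runx1 was lower than both, with 10.34 ± 0.30 in tumours, 11.65 in the epithelial line and 10.93 in the fibroblastic line. The Runx1 call against the fibroblastic line ended on a further quantile normalization (adjusted p = 0.114). Irf8, a factor of monocytes and dendritic cells, had 8.59, 8.93, 8.33 and 8.81 in the tumours, against 7.77, 8.35 and 8.17 in the epithelial line and 5.21, 5.14, 5.56 and 5.50 in the fibroblastic line. Its tumours therefore overlapped the epithelial arrays, with an excess of 0.57 (limma adjusted p = 0.0286) that was not called without tumour 2 or 4 or epithelial array 1 (adjusted p up to 0.122). Nr1h3, a sterol-sensing receptor of macrophages and hepatocytes, had 8.56, 6.12, 6.80 and 8.58 in the tumours, with tumours 1 and 4 high as for Clec4f.

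Of 15 macrophage activation genes 8 were higher than both lines, beside 12% of all genes. The lectin Clec10a had 9.67, 9.65, 10.11 and 10.59 in the tumours and no more than 4.66 in either line alone, with an excess of 5.51 over the epithelial line (limma adjusted p = 4.73e-08). Arg1, an arginase that hepatocytes also express, had 12.48, 12.00, 12.50 and 12.82 in the tumours, against 6.02, 6.48 and 4.87 in the epithelial line and 8.28, 5.99, 8.91 and 5.89 in the fibroblastic line. Its excess was 6.66 over the epithelial line (limma adjusted p = 4.85e-05). Tumour 2, where hepatocyte genes were low, had the lowest of the tumour values, and the part of hepatocytes in them was not tested. The cytokine Il1b had 9.04, 9.33, 8.29 and 9.23 in the tumours and no more than 5.48 in either line alone (3.77 over the epithelial line, limma adjusted p = 1.59e-06).

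Of 12 lipid and matrix genes of macrophages 4 were higher than both lines, beside 12% of all genes. Against the epithelial line 8 were higher and 1 lower, beside 18.9% and 33.2% of all genes. Against the fibroblastic line 7 were higher and 1 lower, beside 27.3% and 33.5% of all genes. The elastase Mmp12 had 12.04, 12.89, 12.87 and 12.35 in the tumours, and 7.31 and 6.46 in the arrays labelled epithelial and fibroblastic co-culture. Both lines alone were between 4.36 and 5.06, so the co-culture arrays stood above them and below the tumours. Apoe, a lipid carrier of macrophages and hepatocytes, had 13.80, 13.58, 13.09 and 13.72 in the tumours, against 6.64, 6.50 and 6.43 in the epithelial line and 5.96, 8.27, 6.35 and 7.83 in the fibroblastic line. Apoc1, another such carrier, had 12.77, 7.92, 11.03 and 12.93 in the tumours, lowest in tumour 2 like the hepatocyte genes. Of 12 ligands and attractants 6 were higher than both lines and 1, Mif, was lower than both, though not than the fibroblastic line on a further quantile normalization (adjusted p = 0.115). Against the epithelial line 8 of these 12 were higher and 4 lower, and against the fibroblastic line 8 were higher and 1 lower. The shares of all genes are those given above for the lipid and matrix genes. Their list averaged 7.92 to 8.28 in the tumours, and 8.07 and 8.84 in the arrays labelled epithelial and fibroblastic co-culture, within and above the range of the tumours, while the arrays of both lines alone averaged 6.70 to 7.24. The chemokine Ccl5 had 7.47, 7.94, 7.69 and 8.76 in the tumours and no more than 6.38 in either line alone.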

How the data were processed

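The deposited expression values are log2 levels that the authors computed by RMA, per the submitters' processing notes. Its version, and which arrays entered one normalization, are not given in the sources used. The log2 scale was read from the range of the values. Per the labels' protocols, total RNA was extracted with Trizol and made into biotinylated cRNA. No value was transformed or normalized again. Probe sets naming a single gene (20826 of 31099) gave 14217 genes, each through its brightest probe set.

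Differences were tested with limma 3.58.1 (R 4.3.3), without a trend, with Benjamini-Hochberg adjustment over all genes and calls at an adjusted p under 0.05: tumours against the lines in 11 arrays, tumours against the co-culture arrays in all 13, and cultures in 9. The tests were tried on simulated data. Counts and plots used matplotlib 3.10.9, numpy 2.4.6, pandas 2.3.3 and Python 3.11.15. Replicate numbers in the labels were not taken to pair the arrays. Deviations of same-numbered arrays correlated at -0.148 to 0.143, and those of differently numbered arrays at -0.194 to 0.196. With 3 or 4 arrays per group this check cannot exclude pairing.

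The genes, lists, tests and settings were chosen with earlier results of these data known. Array values were given for the largest and smallest tumour excess of each role group, for genes not called, and for genes with a line mean above 7.46, the median gene. From each list, up to 3 genes higher and 2 lower than both lines with the largest differences were eligible, and Csf1, Il34 and Csf3 always. Other genes are given by mean. Alternatives were another normalization, centring, filtering, choice of probe set, moderation, weights, limits, each array left out and the replicate number as a block. Added after seeing the data was tumour 2 as the only tumour.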

Additional observations from a re-analysis of the deposited data

Results flagged for a closer look

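In 2 of 66 groups of 4 arrays, 1 array stood apart from the others by more than the gap allowed in a group of that size, which chance does in about 1 in 20 groups. S100a9 was 9.63 in tumour 3, against 10.69 to 10.85 in the other tumours. C1qb was 4.21 in fibroblastic array 2, against 4.83 to 4.87 in the other fibroblastic arrays.

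For 3 genes the change in co-culture differed between the arrays labelled epithelial and fibroblastic (limma over all genes, of which 4.66% had a higher and 3.76% a lower difference). The change of Gpnmb was larger in the epithelial co-culture by 6.44 (adjusted p = 0.0222), with 4.46 there and -1.98 in the fibroblastic co-culture. The change of S100a8 was larger by 1.68 (adjusted p = 0.0232), with 2.56 and 0.87 in the same order. The difference for Cd53 was -2.29 (adjusted p = 0.0302), with -0.10 and 2.19. Its call ended without any 1 of fibroblastic arrays 1, 3 and 4 (up to 0.0621), and also on a further quantile normalization. Each rests on a single co-culture array per line, both arrays carried markers of both lines, and the part of that in these values was not tested.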

How the results depend on the processing

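Over the alternatives the tumour excess of the 33 genes held for most genes. With each array left out in turn, 30 to 32 genes were higher than the epithelial line and 32 to 33 than the fibroblastic line. Of all 14217 genes, 2084 to 2748 and 3445 to 3903 were. Higher than both were 29 to 32 of the 33, which was not counted over all genes. Then 26 to 28 were higher than the epithelial co-culture array (621 to 1010 of all genes) and 28 to 29 than the fibroblastic one (723 to 1091). With tumour 2 as the only tumour, a setting chosen after seeing the data, the spread comes from the 2 lines. Among its smaller differences from the epithelial line were 0.99 for Clec4f, 0.81 for Aif1 and 0.40 for Ncf1. From the fibroblastic line these were 0.65, 1.02 and 0.70. The replicate number as a block gave 31 genes higher than the epithelial line (2333 of all genes) and 32 than the fibroblastic line (3752). It gave 30 higher than both, and 4 genes between the lines in place of 7 (4252 of all genes). Leaving out the genes with the lowest means removed 16 of the 33 from the test. Of the other 17, 16 were then higher in the tumours than the epithelial line, beside 1302 of all 9478 genes left. Against the fibroblastic line 16 were higher (1827 of all), and 15 were higher than both lines. Against the epithelial and fibroblastic co-culture arrays 15 and 15 were higher (409 and 448 of all). The means include the tumours, so genes could pass through their tumour level, and these counts lend the excess no support. The counts among the cultures were less stable. Genes changed in the epithelial co-culture (3) were 1 to 2 with single arrays left out (740 to 950 of all genes), and 1 at an adjusted p under 0.01. Genes differing between the lines (7) were 4 to 6 with single arrays left out (4431 to 4985 of all genes), 3 at that limit and 3 at a 2-fold limit. Genes whose co-culture change differed (3) were 2 to 4 with single arrays left out (989 to 1190 of all genes), and 0 at that limit by limma (4 at an unadjusted p under 0.05). Cd14 in tumours minus the epithelial co-culture array changed sign, to 0.15 after quantile normalization, 0.16 after centring, and 0.07 and 0.04 without tumour 1 or 4 (from -0.13 without tumour 2 to 0.07), with adjusted p from 0.901 to 0.982 for these 4 values. Csf1 against the fibroblastic line turned to -1.18 in its most variable probe set; the cause was not tested. In comparisons of tumours with the epithelial and fibroblastic lines, 50 and 31 of the values for named genes lost their call and 1 and 1 gained it, against 1992 and 2010 that did neither. A single array per co-culture, few arrays per group and unknown independence of cultures limit all of these.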

Other observations

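Genes of blood, mast cells and platelets were higher in the tumours than in both lines for 4 of 12 measured (12% of all genes). Of the 12, 2 were lower than in the epithelial line (33.2% of all genes). The haemoglobin gene Hbb had 10.61, 10.43, 9.22 and 11.49 in tumours 1 to 4, against 6.84, 6.77 and 6.57 in the epithelial line and 6.68, 6.58, 6.62 and 6.50 in the fibroblastic line. It was lowest in tumour 3. There 17 of the 33 myeloid genes were lowest too, a count not made over all genes. Their median deviation in tumour 3 was -0.16, beside 0.02 over all genes, and the part of blood in their values was not tested. The mast cell protease Cpa3 averaged 5.60 ± 0.49 in tumours (SD, n = 4), 4.37 in the epithelial line and 4.32 in the fibroblastic line.

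The T cell genes Cd8a and Gzmb each had an order of their own. Cd8a had 9.71, 10.90, 10.01 and 9.87 in tumours 1 to 4, highest in tumour 2, and Gzmb had 7.25, 8.11, 9.12 and 8.46, highest in tumour 3. Among endothelial genes Lyve1 had 7.98, 6.53, 6.66 and 9.26, so tumours 1 and 4 were high, as for Clec4f. All 9 epithelial markers were higher in the tumours than in the fibroblastic line (27.3% of all genes), and 4 were lower than in the epithelial line (33.2% of all genes). Of 10 fibroblast markers 2, Dcn and Lum, were higher than in both lines (12% of all genes). Dcn had 4.34, 6.84, 4.26 and 6.53 in fibroblastic arrays 1 to 4, and Lum had 3.57, 4.68, 3.52 and 5.34, so arrays 2 and 4 were high, as for Lyz2 and Gpnmb.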
